A study of Mus musculus with 4 samples.

Results

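The 10 genes described here encode cathepsins, the proteases of the lysosome, and were chosen by gene symbol (Ctsa, Ctsb, Ctsc, Ctsd, Ctsh, Ctsk, Ctsl, Ctso, Ctss and Ctsz) from the 24346 gene symbols listed in each library, in which all 10 were found. RNA was sequenced from cultured hair follicle cells of C3H/HeN mice after 10 passages (10p-HFSCs) and after 48 passages (48p-HFSCs), with 2 libraries per group. The cells were sorted as CD34 and CD49f double-positive cells from the dorsal skin of adult mice 4 weeks old, and both groups were then grown without serum or feeder cells in M-CnT, a commercial keratinocyte medium, with 1 passage per week. No transgene or added agent is named for either group. The sources used here do not say whether the 2 libraries of a group came from separate cultures, so p-values measure the spread between these libraries, which may be technical.

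Cathepsins are made as inactive precursors in the endoplasmic reticulum, tagged with mannose 6-phosphate in the Golgi, carried by receptors to endosomes and activated by acid and by cleavage in the lysosome. Most are cysteine proteases of the papain family (Ctsb, Ctsc, Ctsh, Ctsk, Ctsl, Ctso, Ctss and Ctsz here), Ctsd is an aspartic protease and Ctsa is a serine carboxypeptidase. In skin they are known for protein turnover and for proteolysis during keratinocyte differentiation and the hair cycle, and mice without Ctsl lose hair periodically.

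Expression was given as FPKM, the fragments of a gene scaled by the length of its exons and the sequencing depth, so that levels can be compared between genes. Groups were compared with limma on the log2(FPKM + 1) scale for the 11018 genes that reached an FPKM of 1 in at least 2 libraries, and calls required both a Benjamini-Hochberg adjusted p-value under 0.05 and a log2 difference of at least 1 in size. Because of the added 1, this scale understates changes of weakly expressed genes. In these terms 48p-HFSCs had 1189 genes called higher (10.8%) and 1008 called lower (9.15%), or 623 higher and 812 lower when each library was rescaled to the same summed FPKM (TPM), which moved the median difference of all genes from -0.03 to -0.56. The summed FPKM of replicate 2 of 48p-HFSCs, 1414953, was above the 581516 to 719012 of the other libraries, and its relative depth was the lowest, at 46.7% of replicate 1 of 10p-HFSCs. As a check of the label, the keratinocyte genes Krt5 and Krt14 had an FPKM of 1217 or more in every library, whereas Cd34, Lhx2, Lgr5, Nfatc1 and Tcf7l1 of the follicle stem cell markers were at 0.234 or less and Sox9 fell from 44.9 ± 0.991 to 14.3 ± 8.41 (SD, n = 2; limma adjusted p = 0.039). Krt15, a stem cell marker in the paper and counted here with the keratinocyte markers, was at 136 and 82.6 in 10p-HFSCs. In 48p-HFSCs it was at 425 and 18.8, and the groups overlapped (limma adjusted p = 0.92). For Cd34, Lhx2 and Sox9 the paper reports otherwise for these cultures. By quantitative PCR it found CD34 and Krt15 maintained and Lhx2 and Sox9 increased in 48p-HFSCs, and most cells of both groups were positive for CD34 protein. The reason for the difference in Cd34, Lhx2 and Sox9 was not tested.

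The cathepsin mRNAs spanned the whole range of expression in these cells. In 10p-HFSCs, Ctsl was the most abundant, at an FPKM of 734 in replicate 1 and 559 in replicate 2, followed by Ctsd at 572 and 534. Ctsl was above Ctsd within each library although the ranges of these genes over the libraries overlapped, and their levels lay at the percentiles 98.7 and 98.6 of the genes tested. Ctsb, at 69.4 and 68.8, and Ctsh, at 48.9 in both libraries, came next and were separate from each other. Ctsa was at 7.23 and 7.58 and Ctso at 0.858 and 0.735. Ctsk, Ctsz and Ctss lay at 0.297 or less, each overlapping with its neighbour in this order of means (Ctsk, Ctsz, Ctss), and Ctsc was listed at 0.

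In 48p-HFSCs the order was different. Ctsd was first, at 1041 and 1484 in replicates 1 and 2, and Ctsl second, at 653 and 878. Ctsh, at 125 and 173, overlapped with Ctsb, at 102 and 137. Ctsz had moved to the fifth place, at 18.9 and 40.1, above Ctso, at 4.99 and 2.67, and Ctsa, at 1.16 and 0.608. Ctsk, Ctss and Ctsc remained at the end, with at most 0.204. The plot of levels by library shows these values on the log2 scale.

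**Figure D1:**
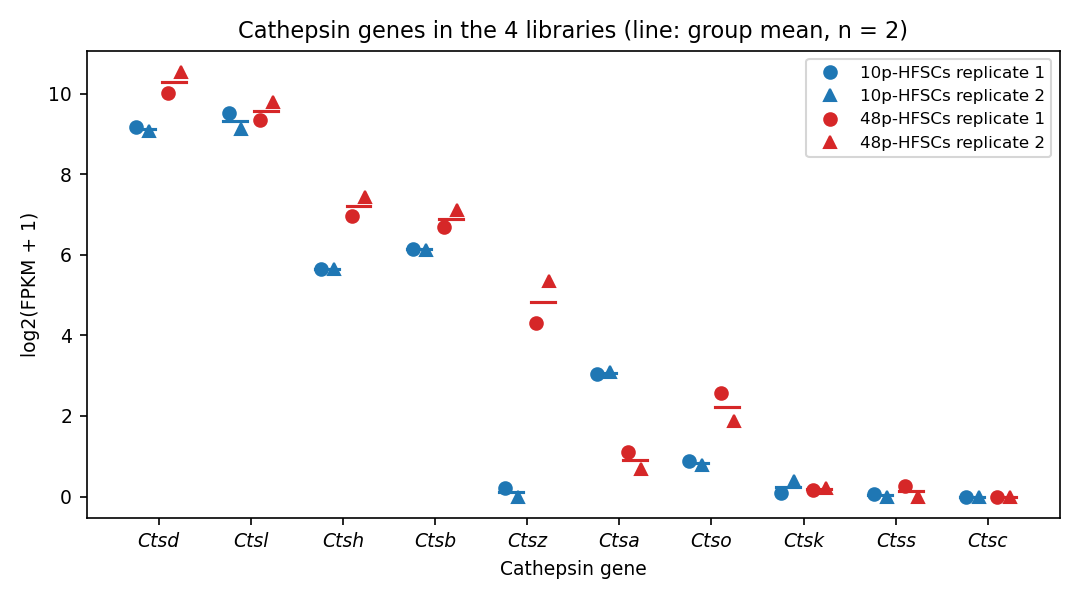
Each point is the log2(FPKM + 1) of a cathepsin gene in a library, with 10p-HFSCs in blue, 48p-HFSCs in red, circles for replicate 1, triangles for replicate 2 and a line at the group mean (n = 2). Ctsz, Ctsh and Ctso lie higher and Ctsa lies lower in 48p-HFSCs, and the points of Ctsl overlap between the groups.

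Of the 10 genes, 7 had enough signal to be tested. In 48p-HFSCs 3 of them were called higher (Ctsz, Ctsh and Ctso) and 1 lower (Ctsa), beside 10.8% and 9.15% of all tested genes (19.9% in either direction). The median log2 difference of the 7 was 1.17, beside -0.03 for all tested genes. Since Ctsz and Ctso reached an FPKM of 1 in 48p-HFSCs alone, they could enter the test through that group only. Ctsa reached it in replicate 1 but not in replicate 2 of 48p-HFSCs, so it could enter through 10p-HFSCs only. The lowest 48p-HFSC value exceeded the highest 10p-HFSC value in 5 of the 7 genes (31.7% of all tested genes), and the reverse held in 1 (34.3%). In bulk RNA, more cells of a type that transcribes a gene and more transcript per cell cannot be told apart. Without replicate 1 or without replicate 2 of 10p-HFSCs, which leaves that group with a lone library assumed to vary like the other group, 0 of the 7 were called. The numbers called over all genes then fell to 35 and 36 higher and to 140 and 146 lower. Without replicate 1 of 48p-HFSCs more of the 7 were called higher, and so were more of all tested genes. The calls among the 7 stayed as they were without replicate 2 of 48p-HFSCs, where fewer of all tested genes were called.

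Ctsz, which encodes cathepsin Z (also named cathepsin X), a carboxypeptidase abundant in macrophages, was the member with the largest change. Its FPKM in replicates 1 and 2 was 0.164 and 0 for 10p-HFSCs, against 18.9 and 40.1 for 48p-HFSCs, so that the groups were far apart although the 48p-HFSC libraries differed from each other. The log2 difference was 4.73 with a standard error of 0.41 (limma adjusted p = 0.0015), which was larger than that of 99.6% of the genes tested. It ranged from 4.20 to 5.25 with each library left out in turn, with an adjusted p of 0.065 without replicate 1 and 0.066 without replicate 2 of 10p-HFSCs in limma. The gene lies on chromosome 2 of mm10 from 174427493 to 174439039 (ENSMUSG00000016256.10) and shares 10 exonic bases with Nelfcd on the opposite strand, which was at 27.2 and 30.1 in 10p-HFSCs, against 31.6 and 49.0 in 48p-HFSCs.

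Since cathepsin Z is abundant in macrophages, markers of leukocytes and macrophages were examined beside Ctsz. Of 10 markers, 3 were tested and 2 were called higher, beside 10.8% of all tested genes. Cd68, a lysosomal membrane glycoprotein, rose from 7.30 and 6.81 to 53.2 and 78.7 (limma adjusted p = 0.0020). Lyz2, a lysozyme, rose from 0.383 ± 0.137 to 2.50 ± 0.761 (SD, n = 2; limma adjusted p = 0.023) and could enter the test through 48p-HFSCs only. The summed FPKM of the 10 markers was 8.74 to 9.17 in 10p-HFSCs and 59.8 to 82.4 in 48p-HFSCs, and most of it came from Cd68 in every library. The remaining tested marker, the macrophage receptor gene Csf1r, was at 1.28 and 1.13 after 10 passages and at 3.39 and 1.62 after 48 passages (limma adjusted p = 0.21). Of the untested markers, Tyrobp and Cd3e were listed at 0 in every library, Ptprc was at 0.0711 or less, Adgre1 and Itgam were at 0.0194 or less, and Fcer1g and Laptm5 were at most at 0.299 in 10p-HFSCs and listed at 0 in 48p-HFSCs. The part of such cells in the Ctsz result was not tested.

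Ctsh, an aminopeptidase that also processes other lysosomal proteins, rose in 48p-HFSCs. Each 10p-HFSC library gave 48.9, and the 48p-HFSC libraries gave 125 and 173. The mean increased 3.04-fold, from 48.9 ± 0.015 to 149 ± 34.5 (SD, n = 2), a log2 difference of 1.57 with a standard error of 0.29 (limma adjusted p = 0.017). The call was lost under TPM rescaling, with a difference of 0.99 and an adjusted p of 0.094 in limma, and without replicate 1 (adjusted p = 0.27) or replicate 2 (adjusted p = 0.25) of 10p-HFSCs. The gene lies on chromosome 9 of mm10 from 90054152 to 90076089 (ENSMUSG00000032359.14), and no other gene of the annotation overlaps it.

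Ctso, a widely expressed and little studied member of the papain family, also rose, from a low level. Its values were 0.858 and 0.735 in 10p-HFSCs, against 4.99 and 2.67 in 48p-HFSCs, and the groups did not overlap. The mean increased 4.81-fold, and the log2 difference was 1.39 with a standard error of 0.32 (limma adjusted p = 0.031). Of the 14 alternatives, 4 ended this call, against 3 for Ctsh and 2 each for Ctsz and Ctsa. It was lost under TPM rescaling (1.15, limma adjusted p = 0.24), without the filter on low values (1.39, limma adjusted p = 0.076) and without replicate 1 or replicate 2 of 10p-HFSCs (limma adjusted p = 0.28 and 0.27). The gene lies on chromosome 3 of mm10 from 81932601 to 81956725 (ENSMUSG00000028015.3).

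Ctsa, which encodes cathepsin A or protective protein, was the member that fell. It is a carboxypeptidase that holds the sialidase Neu1 and the beta-galactosidase Glb1 in a complex and protects them from degradation. Its FPKM was 7.23 and 7.58 in 10p-HFSCs, against 1.16 and 0.608 in 48p-HFSCs. The 10p-HFSC mean was 8.37 times the 48p-HFSC mean, and the log2 difference was -2.17 with a standard error of 0.28 (limma adjusted p = 0.0051). The difference ranged from -2.39 to -1.96 with each library left out in turn, but the adjusted p was 0.091 in limma without either library of 10p-HFSCs. The gene lies on chromosome 2 of mm10 from 164832873 to 164841032 (ENSMUSG00000017760.16), with 9586460 bases between it and Ctsz. Its exons share 495 bases with those of Pltp and 324 with those of Neurl2, both on the opposite strand, and whether strand was used in counting is not given in the sources used here. Pltp was at 13.8 and 9.71 after 10 passages and at 13.6 and 5.81 after 48 passages, and Neurl2 at 0.429 or less.

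The enzymes in the complex with Ctsa had no lower FPKM in 48p-HFSCs. Neu1 was at 9.08 and 9.21 after 10 passages and at 11.7 and 14.6 after 48 passages (log2 difference 0.47, standard error 0.27, limma adjusted p = 0.25). Glb1 was at 23.4 and 18.5 and then at 29.2 and 31.1 (log2 difference 0.51, standard error 0.26, limma adjusted p = 0.20). In both genes each 48p-HFSC library lay above each 10p-HFSC library in FPKM, the opposite of Ctsa, without passing the test. The same separation held in 31.7% of all tested genes. These values were not rescaled to the same summed FPKM, which was largest in replicate 2 of 48p-HFSCs. Psap, the precursor of the saposins, which activate lysosomal lipid hydrolases, was at 131 and 120 after 10 passages and at 202 and 226 after 48 passages (limma adjusted p = 0.12).

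Ctsd and Ctsb, both broadly acting endopeptidases, had higher values in 48p-HFSCs without passing the test. Ctsd was at 572 and 534 after 10 passages and at 1041 and 1484 after 48 passages, a log2 difference of 1.17 with a 95% interval from -0.10 to 2.43 (limma adjusted p = 0.16). It was called with a constant variance prior (adjusted p = 0.046 in limma) and without replicate 1 of 48p-HFSCs (1.42, adjusted p = 0.043 in limma). Ctsb was at 69.4 and 68.8 after 10 passages and at 102 and 137 after 48 passages, a log2 difference of 0.77 with a 95% interval from 0.06 to 1.47 (limma adjusted p = 0.11). For both genes the groups did not overlap in FPKM, and the difference was smaller under TPM rescaling, at 0.58 for Ctsd and 0.19 for Ctsb. Ctsd lies on chromosome 7 of mm10 from 142375911 to 142388038, where its exons share 808 bases with the predicted gene Gm49369 on the same strand, so that reads could have been divided between them. Ctsb lies on chromosome 14 of mm10 from 63122462 to 63145923. The exons of Ctsb share 774 bases with Fdft1 on the opposite strand, which was at 45.8 and 37.3 after 10 passages and at 45.8 and 88.5 after 48 passages.

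Ctsl, an endopeptidase of the lysosome that takes part in hair follicle cycling, did not separate the groups. Its values were 734 and 559 in 10p-HFSCs, against 653 and 878 in 48p-HFSCs. The log2 difference was 0.24 with a 95% interval from -0.96 to 1.44 (limma adjusted p = 0.74), which left room for a change in either direction. The difference had the opposite sign under TPM rescaling (-0.34) and under quantile normalization (-0.36). Ctsl lies on chromosome 13 of mm10 from 64359337 to 64370890 and shares 395 exonic bases with Gm49230 on its own strand and 1742 with Gm47123 on the other, both predicted genes. The plot of differences by setting shows how far each of the 7 genes moved.

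**Figure D2:**
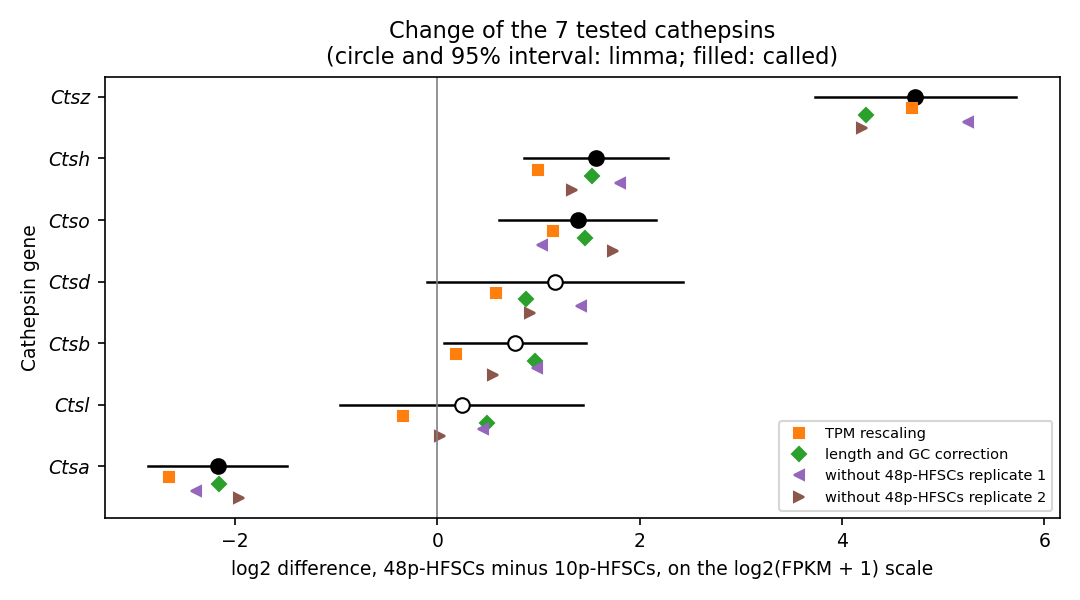
Circles give the log2 difference between 48p- and 10p-HFSCs on the log2(FPKM + 1) scale with its 95% interval from limma (2 libraries per group, filled where called), and the smaller symbols under each circle give the same difference under TPM rescaling, after adjustment for length and GC content of the transcripts, and without either library of 48p-HFSCs. Ctsz and Ctsa stay far from 0 under each of these settings, and Ctsl crosses 0 under TPM rescaling.

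Ratios of FPKM between genes of the same library do not depend on the scaling of that library, and several within the family differed between the groups. The 10 genes summed to an FPKM of 1433 and 1219 in 10p-HFSCs and of 1946 and 2716 in 48p-HFSCs, but their share of the summed FPKM of the library overlapped between the groups, at 0.246% and 0.170% against 0.292% and 0.192%. Ctsl and Ctsd together made up 87.0% to 91.2% of the family in every library. The share of Ctsl was 51.2% and 45.8% in 10p-HFSCs, against 33.6% and 32.3% in 48p-HFSCs, whereas that of Ctsd was 39.9% and 43.8% in 10p-HFSCs, against 53.5% and 54.6% in 48p-HFSCs. The ratio of Ctsd to Ctsl was thus below 1 in the 10p-HFSC libraries (0.779 and 0.956) and above 1 in the 48p-HFSC libraries (1.59 and 1.69). The groups did not overlap in this ratio, and the smallest two-sided p that an exact permutation test allows with 2 libraries against 2 is 0.333. The ratio was not adjusted for length and GC content of the transcripts. That adjustment moved the log2 difference of Ctsd from 1.17 to 0.88 and that of Ctsl from 0.24 to 0.49, which brought them closer together. Ctsb kept a share of 4.85% to 5.64% with overlapping groups, and Ctsh had 3.42% and 4.01% before and 6.40% and 6.38% after.

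**Figure D3:**
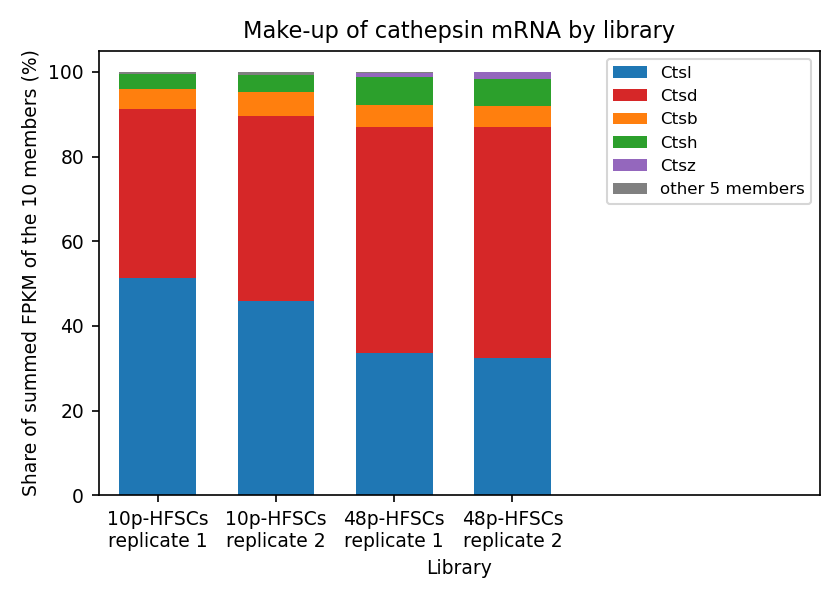
Stacked bars give the share, in percent, of each cathepsin in the summed FPKM of the 10 members for each library, with the 5 members that have the smallest shares or are listed at 0 drawn together in grey. The Ctsl part is 51.2% and 45.8% in 10p-HFSCs, against 33.6% and 32.3% in 48p-HFSCs, while the Ctsd part is larger in 48p-HFSCs.

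The remaining members were not expressed at a level that could be tested. Ctsk, the collagen-degrading protease of osteoclasts, was at 0.0708 and 0.297 in 10p-HFSCs, against 0.128 and 0.152 in 48p-HFSCs. Ctss, which cleaves the invariant chain of MHC class II molecules in antigen-presenting cells, was at 0.0423 and 0 in 10p-HFSCs, against 0.204 and 0 in 48p-HFSCs. These values overlapped between the groups, and a difference was not detectable at these levels. The genes are neighbours on chromosome 3 of mm10, from 95499256 to 95509362 for Ctsk and from 95526786 to 95556403 for Ctss. Ctsc, which encodes the dipeptidyl peptidase that activates serine proteases of immune cells, was listed at 0 in all 4 libraries. Of 4 further osteoclast markers, Calcr was listed at 0 in every library, and Ocstamp and Dcstamp were at 0.112 or less in 10p-HFSCs and listed at 0 in 48p-HFSCs. Acp5, an acid phosphatase of osteoclasts and macrophages and the only one of the 4 that was tested, rose from 0.059 ± 0.084 to 3.95 ± 1.23 (SD, n = 2; limma adjusted p = 0.0047). It could enter the test through 48p-HFSCs only.

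Whereas Ctss stayed near 0, the transcript of its substrate rose. Cd74, the invariant chain, rose from 0.268 ± 0.095 to 81.7 ± 29.0 (SD, n = 2), a log2 difference of 5.98 with a standard error of 0.34 (limma adjusted p = 0.00085). It could enter the test through 48p-HFSCs only. Of the 8 genes of the class II pathway examined, 5 were tested. Beside 10.8% and 9.15% of all tested genes, 1 was called higher (Cd74) and 1 lower. The latter was H2-DMa, a subunit of the peptide exchange factor, which could enter the test through 10p-HFSCs only. It fell from 3.29 ± 0.715 to 0.823 ± 0.362 (SD, n = 2; limma adjusted p = 0.031). That call was lost without the filter on low values, under quantile normalization and without either library of 10p-HFSCs. Of the chains of the class II molecules themselves, H2-Aa and H2-Ab1 were at 0.0564 or less and H2-Eb1 was at 2.50 and 1.96 after 10 passages and at 2.41 and 1.43 after 48 passages (limma adjusted p = 0.71).

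Promoter sequence was at hand from RefSeq (build GRCm38.p6, the assembly of mm10, from C57BL/6J mice) for 8 of the 10 members, with 2 start sites for Ctsa. It was lacking for Ctsb and Ctsh, which were therefore not searched. The 250 bases before each start were searched on both strands for CACGTG, the E-box, for its longer form TCACGTGA, which is bound by the lysosomal regulators of the MiT/TFE family, for the latter with a further G before and C after it, for the core of the interferon response element (GAAA, any 2 bases and GAAA again), and for TTCNNNGAA, the STAT site. CACGTG, which the longer forms contain, was found in 3 members (Ctsa, Ctsd and Ctsl) and in 6.02% of all 32851 promoters of the table. TCACGTGA was found in 2 members, Ctsa and Ctsd, and in 0.785% of promoters, and the form with the further G and C in 0 members and 0.24% of promoters. The interferon response core was found in Ctss and in 2.98% of promoters, TTCNNNGAA in Ctsc and in 7.02%. The following sequences include Ctsa and Ctsd, which share the longer E-box and had differences of opposite sign, and Ctsz, which had the largest change. Ctss is included because it stayed near 0 and its window matched the interferon response core. Capitals mark the motifs.
Ctsa, chr2:164833523-164833772, plus strand: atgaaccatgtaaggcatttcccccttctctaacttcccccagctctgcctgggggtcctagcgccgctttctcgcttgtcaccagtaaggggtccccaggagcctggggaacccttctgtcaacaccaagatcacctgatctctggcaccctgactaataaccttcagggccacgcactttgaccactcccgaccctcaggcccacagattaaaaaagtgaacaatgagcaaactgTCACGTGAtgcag
Ctsd, chr7:142387828-142388077, minus strand: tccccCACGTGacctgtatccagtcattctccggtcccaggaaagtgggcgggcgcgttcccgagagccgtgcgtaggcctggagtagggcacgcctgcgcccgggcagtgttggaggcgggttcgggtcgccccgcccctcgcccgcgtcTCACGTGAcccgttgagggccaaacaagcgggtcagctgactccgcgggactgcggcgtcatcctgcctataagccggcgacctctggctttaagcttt
Ctsz, chr2:174439040-174439289, minus strand: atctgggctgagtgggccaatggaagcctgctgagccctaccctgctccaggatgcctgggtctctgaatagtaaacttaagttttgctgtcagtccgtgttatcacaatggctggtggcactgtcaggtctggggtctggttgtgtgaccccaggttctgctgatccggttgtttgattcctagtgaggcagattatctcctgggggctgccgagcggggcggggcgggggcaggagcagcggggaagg
Ctss, chr3:95526536-95526785, plus strand: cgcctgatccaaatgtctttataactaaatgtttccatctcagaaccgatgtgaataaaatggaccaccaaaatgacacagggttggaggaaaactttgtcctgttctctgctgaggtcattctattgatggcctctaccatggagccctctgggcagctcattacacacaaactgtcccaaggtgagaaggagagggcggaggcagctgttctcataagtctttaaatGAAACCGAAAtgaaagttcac

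The TCACGTGA of Ctsa began 13 bases before the start site shown, and that of Ctsd 99 bases before, with another CACGTG 245 bases before. By the gene positions given above, the Ctsa window shown lies inside its gene and the Ctsd window lies mostly inside its gene. The GAAACCGAAA of Ctss began 21 bases before its start. No motif of the search was found in the windows of Ctsz, Ctso and Ctsk or before the other start of Ctsa. These matches describe the sequence, and binding was not measured.

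The regulators that are known to act through the longer E-box were examined next. Of 10 genes for MiT/TFE factors, proteins that control their place in the cell and Zkscan3, a repressor of lysosomal and autophagy genes, 7 were tested. Of these 0 were called higher and 2 lower, beside 10.8% and 9.15% of all tested genes, with a median log2 difference of -0.90. Tfeb, a main activator of lysosomal genes, was at 2.62 and 3.88 after 10 passages and at 0.0854 and 0 after 48 passages, a log2 difference of -2.01 with a standard error of 0.26 (limma adjusted p = 0.0051). Rragc, a GTPase that recruits these factors to the lysosome, fell from 50.0 ± 2.70 to 23.0 ± 0.62 (SD, n = 2; limma adjusted p = 0.028). Tfe3, the related factor with the highest level, was at 20.5 and 21.6 after 10 passages and at 12.8 and 20.0 after 48 passages (limma adjusted p = 0.40). Mitf, another factor of the family, was below the limit for testing, at 0.804 and 0.597 after 10 passages and at 1.70 and 0.861 after 48 passages, and Tfeb entered the test through 10p-HFSCs only. Without replicate 1 of 48p-HFSCs more of the 7 genes were called lower, and more of all tested genes were too. Without either library of 10p-HFSCs fewer were called lower, both of the 7 and of all tested genes.

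Of 12 further cathepsin genes, 2 were tested and both were called, beside 19.9% of all tested genes. Ctse, an aspartic protease of endosomes, was listed at 0 at 10 passages in both libraries and reached 3.20 and 4.91 in 48p-HFSCs (log2 difference 2.32, standard error 0.27, limma adjusted p = 0.0037), the group through which alone it entered the test. Ctsf, a lysosomal cysteine protease, fell from 2.59 and 3.70 to 1.10 and 0.650 (log2 difference -1.14, standard error 0.28, limma adjusted p = 0.039). This call was lost under TPM rescaling, without the filter on low values and with a mean FPKM of at least 1 as the filter. Ctsf could enter the test through 10p-HFSCs only. Ctse was not called without either library of 10p-HFSCs, and Ctsf was not called without any of 3 libraries, those of 10p-HFSCs and replicate 2 of 48p-HFSCs. Among the cathepsins known from the placenta, Ctsq was listed at 0 in 10p-HFSCs and was at 0.314 and 0.557 in 48p-HFSCs, and Cts3 was at 0.456 in replicate 1 of 48p-HFSCs and at 0 elsewhere.

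Inhibitors of cysteine cathepsins included several that rose. Of 27 inhibitor genes 25 were in the libraries and 9 were tested, of which 4 were called higher and 0 lower, beside 10.8% and 9.15% of all tested genes, and the median log2 difference was 1.39. The 4 genes were the stefins Stfa3, BC100530, Stfa2l1 and Csta1, small cytoplasmic inhibitors, of which all but Csta1 reached an FPKM of 1 in 48p-HFSCs alone and so could enter the test through that group only. Stfa3 was at 0.466 and 0 after 10 passages and at 16.0 and 7.97 after 48 passages (log2 difference 3.35, standard error 0.40, limma adjusted p = 0.0041). BC100530 was listed at 0 in 10p-HFSCs and was at 3.70 and 1.75 in 48p-HFSCs, and Stfa2l1 and Csta1 had differences of 1.06 and 1.05. These genes are close copies of each other, and reads could have been split between them. The number called was 2 under TPM rescaling and 2 after adjustment for length and GC content of the transcripts, where the difference of Stfa2l1 was 0.28. More inhibitors were called higher without replicate 1 of 48p-HFSCs, and all 4 calls were lost without either library of 10p-HFSCs. The number of all genes called higher likewise rose in the first case and fell in the second.

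The most abundant inhibitors did not pass the test. Cstb, the cytoplasmic stefin B, was at 273 and 308 after 10 passages and at 723 and 976 after 48 passages, a log2 difference of 1.53 with a standard error of 0.43 (limma adjusted p = 0.054), and in FPKM it was 0.372 and 0.551 times Ctsl in 10p-HFSCs and 1.11 times in each 48p-HFSC library. Cst3, the secreted cystatin C, was at 412 and 418 after 10 passages and at 286 and 489 after 48 passages (limma adjusted p = 0.83). Cst6, cystatin M of the epidermis, which inhibits Ctsl, was at 18.6 and 24.7 and then at 10.8 and 19.2 (limma adjusted p = 0.30). The groups overlapped in Cst3 and Cst6 and did not in Cstb.

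Genes for the delivery of cathepsins to the lysosome were mixed. Of 19 genes 18 were tested, 1 was called higher and 5 lower, beside 10.8% and 9.15% of all tested genes, with a median log2 difference of -0.36. The increase was that of Ap1m2, the epithelial medium subunit of the AP-1 coat, which was listed at 0 at 10 passages in both libraries and reached 49.9 and 68.5 in 48p-HFSCs. Only through that group could it enter the test. Ap1m2 is named by the study among its largest increases in these libraries, so its direction is not independent evidence. Ap1m1, the ubiquitous form of the same subunit, fell from 23.6 ± 0.033 to 10.3 ± 2.83 (SD, n = 2; log2 difference -1.14, limma adjusted p = 0.041).
Igf2r, the large mannose 6-phosphate receptor, fell from 17.1 and 9.85 in 10p-HFSCs to 1.49 and 1.42 in 48p-HFSCs, a log2 difference of -2.52 with a standard error of 0.34 (limma adjusted p = 0.0059). M6pr, the small receptor, was at 72.8 and 66.1 after 10 passages and at 114 and 135 after 48 passages (log2 difference 0.83, limma adjusted p = 0.080). The values of the receptors thus lay in opposite directions, with the call made for Igf2r alone. Gnptab, which makes the mannose 6-phosphate tag, was at 29.2 and 18.9 and then at 11.2 and 5.46 (log2 difference -1.47, limma adjusted p = 0.053). The other decreases were those of Vps26a (-1.36) and Vps35 (-1.18), subunits of the retromer that returns receptors to the Golgi, and of Gga2 (-1.10), an adaptor for these receptors. The number called lower was 3 without the filter on low values, 2 without replicate 2 of 48p-HFSCs and 0 without either library of 10p-HFSCs, and 3 were called higher after adjustment for length and GC content of the transcripts.

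Other lysosomal enzymes also changed gene by gene. Of 7 other lysosomal peptidases, 7 were tested, 1 was called higher and 1 lower, beside 10.8% and 9.15% of all tested genes. Napsa, an aspartic protease related to Ctsd, was at 0.153 and 0.160 after 10 passages and at 22.7 and 25.0 after 48 passages (log2 difference 4.42, standard error 0.26, limma adjusted p = 0.00092). Cpq, a carboxypeptidase, was at 3.86 and 2.82 in 10p-HFSCs and was listed at 0 in 48p-HFSCs (limma adjusted p = 0.0038). Lgmn, the legumain that cleaves cysteine cathepsins into chains, averaged 26.2 ± 3.09 and then 40.0 ± 13.2 (SD, n = 2; limma adjusted p = 0.24). Napsa reached an FPKM of 1 in 48p-HFSCs alone and Cpq in 10p-HFSCs alone, so that each could be tested only through the group where it is high.
Of 31 hydrolases and activators of other kinds, 29 were tested, with a median of 0.22. Beside 10.8% and 9.15% of all tested genes, 6 were called higher and 1 lower. The largest of these changes were those of Dnase2a, the lysosomal DNase, which was listed at 0 in 10p-HFSCs and was at 9.09 and 7.12 in 48p-HFSCs, and of Acp5, given above. Dnase2a, Acp5 and Galc could enter the test through 48p-HFSCs only. Lipa, the acid lipase, rose from 6.34 ± 0.553 to 31.8 ± 2.95 (SD, n = 2; log2 difference 2.16, limma adjusted p = 0.0039). Ppt1, a thioesterase, fell from 18.1 ± 0.64 to 4.78 ± 1.98 (SD, n = 2; log2 difference -1.77, limma adjusted p = 0.017). Galc and Fuca1, which remove sugars from lipids and glycoproteins, rose with differences of 1.24 (from a listing at 0 in both 10p-HFSC libraries) and 1.09. Under TPM rescaling 3 of these genes were called higher and 0 lower, and without either library of 10p-HFSCs 0 were called in either direction.
Of 26 genes for the lysosomal membrane and its proton pump 26 were tested, with a median of -0.14. Beside 10.8% and 9.15% of all tested genes, 1 was called higher and 2 lower. Tcirg1, a membrane subunit of the pump known from osteoclasts, rose from 17.1 and 30.1 to 64.2 and 158 (standard error of the log2 difference 0.50, limma adjusted p = 0.035). Atp6v0a1, the form of the same subunit found in most cells, fell from 24.5 ± 0.487 to 10.4 ± 0.641 (SD, n = 2; log2 difference -1.16, limma adjusted p = 0.025), and Atp6v1b2, a catalytic-head subunit, fell with a difference of -1.91. The call of Tcirg1 was lost without the filter on low values (limma adjusted p = 0.084) and without replicate 2 of 48p-HFSCs, and without either library of 10p-HFSCs 0 genes of this list were called.

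**Figure D4:**
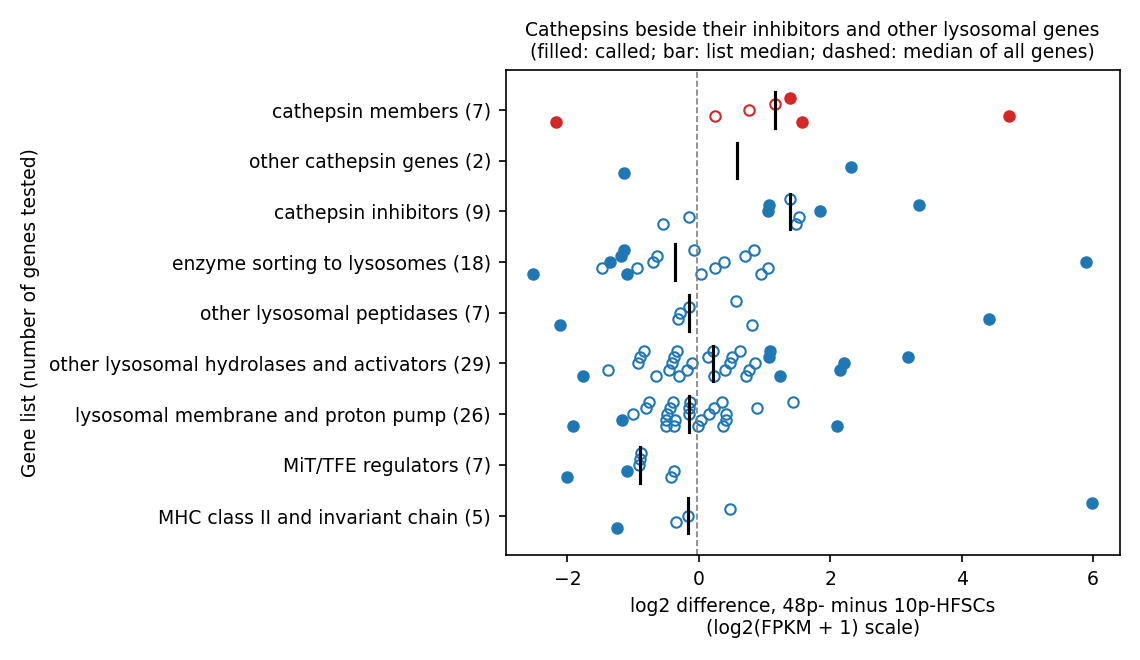
Each point is the log2 difference between 48p- and 10p-HFSCs on the log2(FPKM + 1) scale of a tested gene of the list named on the left (cathepsin members in red), filled where called, with a bar at the median of the list and a dashed line at the median of all genes. The cathepsin members and inhibitors have medians of 1.17 and 1.39, and the MiT/TFE regulators have a median of -0.90.

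Over the 8 lists beside the members, 138 of 140 genes were in the libraries and 103 were tested, of which 15 were called higher and 13 lower, beside 10.8% and 9.15% of all tested genes. Without either library of 10p-HFSCs these numbers were 3 and 1. Marker genes also differed in value between the groups. The 6 keratinocyte markers summed to 3515 and 2882 in 10p-HFSCs and to 12806 and 7819 in 48p-HFSCs. Itga6 and Itgb4 were called higher among them, and Krt5, at 1805 and 1473 and then at 8156 and 5120, was not (limma adjusted p = 0.18). The 7 fibroblast markers summed to 353 and 388 in 10p-HFSCs and to 2.61 and 3.27 in 48p-HFSCs, and 2 of them, Col1a2 and Vim, were tested and called lower, while Dcn and Lum were listed at 0 in every library. Col1a2, at 67.6 and 59.3 in 10p-HFSCs, could enter the test through that group only. The fibroblast markers Col1a1 and Pdgfra were not tested and were at 0.903 or less in every library. The 4 melanocyte markers summed to 0.486 and 0.640 in 10p-HFSCs and to 2.15 and 10.8 in 48p-HFSCs, with 0 of them called and Dct listed at 0. The 4 endothelial markers summed to 2.54 and 2.30 in 10p-HFSCs and to 1.37 and 0.292 in 48p-HFSCs, with 0 called. The part of these differences in the cathepsin results was not tested.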

How the data were processed

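RNA of 2 libraries of 10p-HFSCs and 2 of 48p-HFSCs had been prepared with a stranded mRNA kit and read from 1 end. The authors mapped the reads to mm10 and deposited 1 FPKM value per gene symbol and library, from Cufflinks per the paper and from Cuffdiff 2.2.1 per the labels. The submitters' processing notes name TopHat2 2.1.1, Bowtie2 2.2.8 and SAMtools 0.1.18, and the paper gives other versions of the last pair. The gene annotation and the strand setting are not given in the sources used here. FPKM values are not counts, so no count test was run. Absolute depth is unknown, and relative depth was taken from the most common ratio of FPKM values under 0.3.

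FPKM values were analysed as log2(FPKM + 1) with limma 3.58.1 in R 4.3.3 (variance trend, Benjamini-Hochberg adjustment over the 11018 genes that reached an FPKM of 1 in 2 or more libraries), and the fit was tested on simulated data. Positions, exon overlaps, lengths and GC content were taken from GENCODE M21 (GRCm38), which held 95.7% of the symbols and lengths for 96.3% of the genes tested. Libraries were grouped by the passage number in their labels. Members, lists and tests were chosen with earlier results of these data known. The genes named are the 10 members, called genes of the lists (6 at most per list, by size of difference) and partners of the members. Alternatives were a pseudocount of 0.1, no filter, a mean FPKM of at least 1, TPM, median-of-ratios and quantile scaling, a constant variance prior, no fold limit, the replicate block, splines with 4 degrees of freedom on length and GC content, and each library left out in turn. Overlapping genes, H2-Aa, H2-Ab1, H2-Eb1, Mitf, Zkscan3, Ctsq, Cts3 and the cell type markers named beside results were picked after their values were seen. Figures were drawn with matplotlib 3.10.9.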

Additional observations from a re-analysis of the deposited data

How the results depend on the processing

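With 15 alternatives, the number of members called higher was 1 under TPM rescaling and 0 to 4 with each library left out in turn, and the number called lower was 0 to 1 with a library left out. Over all genes, 623 were called higher under TPM rescaling, 637 lower without the filter on low values, and 35 to 1936 higher and 140 to 1875 lower with a library left out. For the pathway lists the ranges were 3 to 21 higher and 1 to 19 lower. Leaving out a library of 10p-HFSCs leaves 1 residual degree of freedom, and it rests on the spread of 48p-HFSCs. Among members, the sign changed for Ctsl alone, to -0.34 under TPM rescaling and -0.36 under quantile normalization, and the cause was not tested. The log2 ratio of group means without a pseudocount, added after the values had been seen, was -3.06 for Ctsa, 2.27 for Ctso and 8.49 for Ctsz, the last of which rests on a single low value in 10p-HFSCs.

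Both groups use replicate numbers 1 and 2, and nothing in the labels ties a number to a culture or day. Across genes, the departures of libraries with the same number from the mean of their group correlated with r = 0.408. With the replicate block, 3 members were called higher and 1 lower, 7 inhibitors were called higher in place of 4, and 1613 genes were called higher and 1497 lower in all. Depth limits the members with FPKM under 0.3, which were Ctsk, Ctss and Ctsc in every library and Ctsz in 10p-HFSCs.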
